A study of Homo sapiens with 26 samples.

Results

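The genes described here are 40 names chosen for the response to low oxygen and for glycolysis: the hypoxia-inducible factor (HIF) alpha subunits, genes that HIF is known to induce, glucose and lactate transporters, enzymes that set fructose 2,6-bisphosphate, and the enzymes of glycolysis. 39 of the 40 had a row among the 58039 genes of the count table, found by symbol. The remaining name, MXI1P1, was not analysed here. Of the 39, 38 had enough counts to be tested, and carbonic anhydrase CA9, a HIF target, had 0 to 3 counts per library and was not.

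RNA was sequenced from 26 libraries of HCT116, an epithelial line from a human colon carcinoma, grown in DMEM with fetal bovine serum. The groups were CRISPR knockouts of the kinase genes CDK8 (CDK8KO) and CDK19 (CDK19KO) and of the pair (DKO), with 2 sublines per genotype, C1 and C2, of 3 libraries each, subline DKO-C1 given JQ1 (n = 2), control HCT116 cells given JQ1 (n = 3), and control HCT116 cells without it (n = 3). CDK8 and CDK19 are the alternative kinases of Mediator, the complex that links transcription factors to RNA polymerase II, and JQ1 blocks the bromodomains with which BET proteins hold acetylated histones. The labels give neither the dose nor the time of JQ1, and no library is labelled as grown in low oxygen.

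The libraries held 17700864 to 19093094 gene counts each. CDK8 stood at 43.6 to 48.3 CPM (counts scaled to library size with TMM factors) in CDK8KO, 35.4 to 40.4 CPM in DKO without JQ1 and 50.1 to 52.2 CPM in control. CDK19 stood at 17.5 to 20.3 CPM in CDK19KO-C1, 23.8 to 26.9 CPM in CDK19KO-C2, 31.8 to 41.3 CPM in DKO without JQ1 and 24.4 to 29.9 CPM in control. Its RNA was thus lower than control in CDK19KO-C1, overlapped control in CDK19KO-C2 and was higher in the libraries labelled DKO, against a loss of transcript. The genotype names below are those of the labels. Of 7 colon epithelial markers, summed at 3929 to 7589 CPM per library, 5 reached 10 counts and 2, VIL1 and CDH17 (0 to 5 counts), did not. That sum was 5963 to 7589 CPM in DKO libraries and 3929 to 4495 CPM in control. KRT8, KRT18 and CDH1 had more counts in every DKO library than in control. KRT19 had fewer, at 7638 to 9911 against 11679 to 12338. EPCAM had fewer in DKO-C2, at 4394 to 5299 against 6161 to 6392. The part of these markers in the results was not tested. Leukocyte markers summed to at most 0.83 CPM, endothelial markers to at most 1.04 CPM and fibroblast markers to 13.8 to 31.5 CPM.

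In well oxygenated cells, prolyl hydroxylases such as EGLN1 and EGLN3 mark HIF alpha subunits for destruction, so that HIF activity is set mainly by protein stability and not by the RNA of HIF1A or EPAS1. When oxygen falls, the subunits pair with ARNT and bind the core motif RCGTG beside genes for glucose uptake, glycolysis, blood vessel growth and mitochondrial turnover. Many glycolytic enzyme genes are HIF targets as well, and in colon carcinoma lines they are highly expressed in ordinary culture. Fold changes below are log2 values ± the standard error (SE). They are relative to the bulk of genes. With factors from the ERCC spike-in RNAs in their place, the median of all genes shifted by -1.22 for CDK8KO, -1.65 for CDK19KO and -0.90 for DKO against control, by 0.43 for CDK8KO against CDK19KO, and by -0.37 and -0.27 for JQ1 in control and in DKO-C1. Relative to these shifts, 66 single-gene values moved by at most 0.021. That follows from the scaling, which moves all genes of a library together, and is no test of the values.

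Per kilobase of exon, with the exons of all annotated isoforms merged, the control cells held most GAPDH, at 1114 CPM per kb, then ENO1 at 406, TPI1 at 259.5, ALDOA at 258, PKM at 244 and LDHA at 187 CPM per kb. The order depends on that merged length, which is 8571 bases for PKM and 2700 for TPI1. PKM had more counts than TPI1. GAPDH, TPI1, ALDOA, ENO1, PKM and LDHA encode enzymes of the common trunk of glycolysis and, for LDHA, the reduction of pyruvate to lactate. TPI1 and ALDOA lay closer to each other than the spread of either over the 3 control libraries. Among transporters, SLC2A1, the glucose carrier GLUT1, held 61.8 CPM per kb, and SLC2A3, the high-affinity carrier GLUT3, held 0.969 CPM per kb. HIF1A held 44.1 and EPAS1, which encodes HIF-2 alpha, 5.13 CPM per kb. Of the HIF target genes, ADM was highest at 12.6 CPM per kb, and ANGPTL4 (0.555), EGLN3 (0.51), ANKRD37 (0.366) and CA9 (0.0318 CPM per kb) were lowest. VEGFA had more counts than ADM, over a merged length of 14431 bases against 2718.

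**Figure D1:**
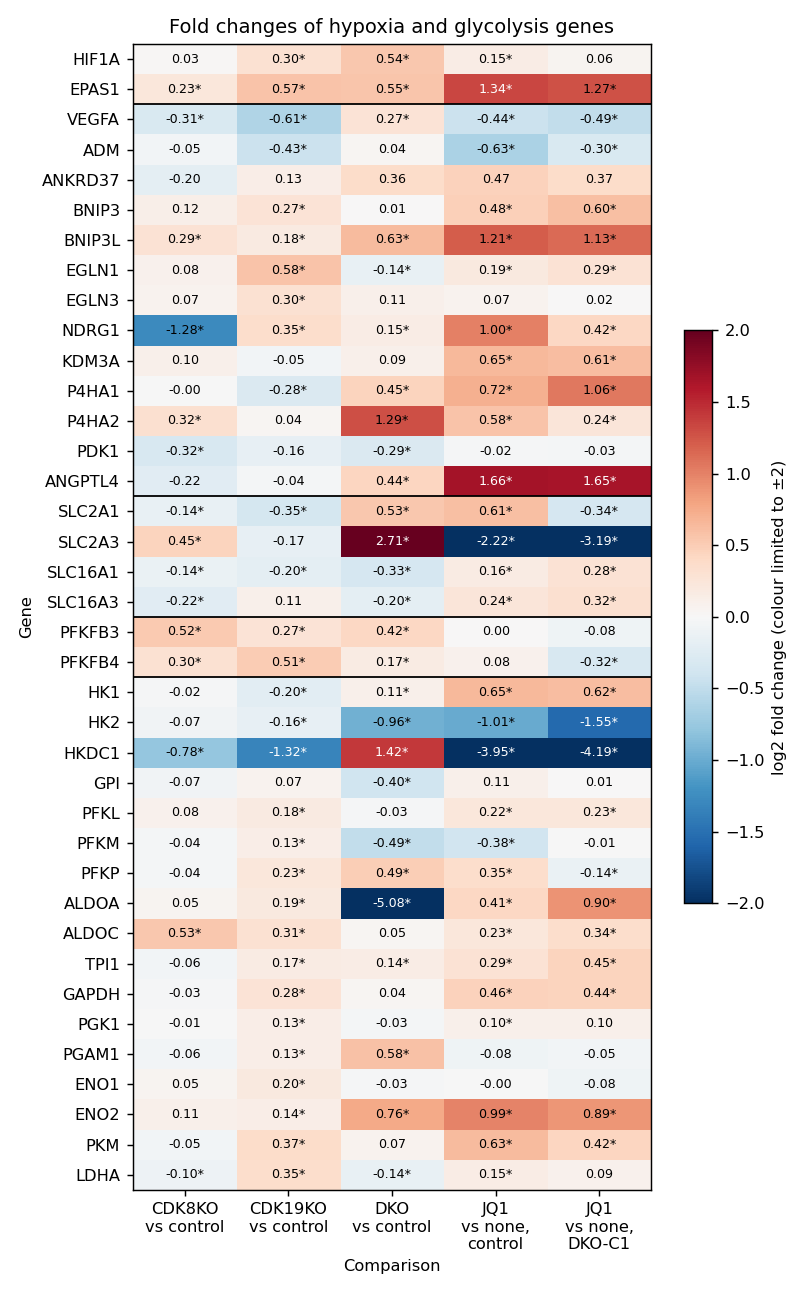
Log2 fold changes of the 38 tested genes (rows, ordered by role) in 5 comparisons (columns), each the first-named group over the second. An asterisk marks an adjusted p under 0.05 in the edgeR test. SLC2A3, HKDC1 and ALDOA hold the strongest colours, and ALDOA stands at -5.08 in DKO against control.

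In CDK8KO cells most of the genes did not pass the test, and NDRG1 stood apart. NDRG1, a stress-induced gene of the N-myc downstream regulated family and a HIF target, had 24.1, 21.9 and 22.8 CPM in CDK8KO-C1 and 32.8, 33.1 and 31.0 CPM in CDK8KO-C2, against 64.2, 68.2 and 65.5 CPM in control. All 6 CDK8KO libraries lay below every control library, and the fold change was -1.28 ± 0.05 (adjusted p = 9.35e-22, edgeR quasi-likelihood test). The background is broad: 40.5% of 17198 tested genes were called in CDK8KO against control at an adjusted p under 0.05 (19.5% higher and 21.0% lower). Of the 38 members, 7 were higher, 8 were lower and 23 were not called, 39.5% called, near the background.

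Of the HIF alpha subunits, EPAS1 rose in CDK8KO by 0.23 ± 0.05 (adjusted p = 0.000228), and HIF1A had a pooled fold change of 0.03 ± 0.04 (adjusted p = 0.582). That average hides sublines that were called in opposite directions, with HIF1A at 0.20 in C1 alone (adjusted p = 0.000481) and -0.14 in C2 alone (adjusted p = 0.0153). Among 13 tested HIF targets, P4HA2, a subunit of the collagen prolyl hydroxylase, and BNIP3L, a mitophagy receptor, rose by 0.32 and 0.29. NDRG1, VEGFA (the vessel growth factor, -0.31) and PDK1 (pyruvate dehydrogenase kinase, -0.32) fell, and 8 were not called. Among 17 glycolytic enzymes, ALDOC, an aldolase isoenzyme, rose by 0.53 ± 0.08 (adjusted p = 1.44e-06), to 14.3, 14.6 and 14.3 CPM in C1 and 16.4, 16.3 and 17.2 CPM in C2, against 11.3, 10.2 and 10.5 CPM in control. HKDC1, a hexokinase-like enzyme of epithelia, fell by 0.78, LDHA by 0.10, and 14 enzymes were not called. The LDHA call was lost when any of 6 libraries was left out, among them each control library in turn. GAPDH, PGK1, ENO1 and PKM had fold changes of -0.03, -0.01, 0.05 and -0.05 in CDK8KO, none of them called.

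The regulators PFKFB3 and PFKFB4, which make fructose 2,6-bisphosphate and so speed phosphofructokinase, both rose in CDK8KO. PFKFB3 had 91.5, 89.3 and 99.1 CPM in C1 and 98.8, 99.4 and 99.1 CPM in C2, against 65.1, 72.2 and 64.4 CPM in control, a fold change of 0.52 ± 0.04 (adjusted p = 8.46e-12). PFKFB4 rose by 0.30 ± 0.07, a call that C2 alone did not give (0.11, adjusted p = 0.303). The lactate carriers SLC16A1 and SLC16A3 fell by 0.14 and 0.22 in CDK8KO.

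Other genes split the CDK8KO sublines. SLC2A3 had 11.3, 11.5 and 11.3 CPM in CDK8KO-C1, 5.63, 5.87 and 5.96 CPM in CDK8KO-C2 and 5.30, 5.70 and 6.90 CPM in control. C1 lay above control and C2 did not, so the pooled rise of 0.45 ± 0.09 became -0.03 with C2 alone (adjusted p = 0.85) and 0.93 with C1 alone (adjusted p = 1.32e-09). HKDC1 ran the other way, at 0.932, 1.05 and 1.28 CPM in C1, 2.98, 2.75 and 2.85 CPM in C2 and 2.83, 2.80 and 3.48 CPM in control. Its fall rests on C1, since C2 alone gave -0.09 (adjusted p = 0.76). SLC2A1 stood at 331 to 332 CPM in C1, 207 to 218 CPM in C2 and 249 to 332 CPM in control, so its pooled fall of 0.14 averages 0.18 in C1 and -0.47 in C2. P4HA2 was not called in C2 alone (0.16, adjusted p = 0.0536), nor PDK1 in C1 alone (-0.24, adjusted p = 0.07). Between the CDK8KO sublines directly, 15 of 38 members were called, against 21.1% of all genes.

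In CDK19KO cells the glycolytic enzymes were mostly raised by small amounts, and more so in subline C1 than in C2. 22 of the 38 members were higher, 8 were lower and 8 were not called, against 43.0% of all tested genes called in CDK19KO against control (21.0% higher and 22.0% lower). Of 17 enzymes, 13 were higher, 3 lower and 1 not called, with a median of 0.17, while the median of all tested genes was -0.02. Of 13 HIF targets, 5 were higher, 3 lower and 5 not called, with a median of 0.04. Against control, 13 enzymes were higher and 2 lower in C1 alone (median 0.27), and 5 were higher and 3 lower in C2 alone (median 0.03). Of the HIF targets, 2 were higher and 6 lower in C1 alone (median -0.21), and 5 and 3 in C2 alone (median 0.26). The pooled median of 0.04 for HIF targets thus describes neither subline. Of all genes 22.1% were higher and 24.0% lower in C1, and 21.8% and 20.6% in C2. The enzymes ALDOA, ALDOC, TPI1, PGAM1, PFKM and PFKL were not called in C2 alone.

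Among the abundant enzymes, PKM and LDHA were higher in both CDK19KO sublines. PKM, pyruvate kinase, had 2439.8, 2527 and 2627 CPM in C1 and 2980.0, 2907 and 2856 CPM in C2, against 2059, 2100.4 and 2125 CPM in control, a rise of 0.37 ± 0.04 (adjusted p = 2.66e-09). LDHA had 1391, 1548 and 1525 CPM in C1 and 1418, 1500.0 and 1501 CPM in C2, against 1155, 1163 and 1167 CPM in control, a rise of 0.35 ± 0.04 (adjusted p = 1.77e-09). In both genes the 6 CDK19KO libraries lay above the 3 control libraries. GAPDH had 4191, 4409 and 4546 CPM in C1 and 3645, 3752 and 3718 CPM in C2, against 3264, 3411 and 3286 CPM in control, a rise of 0.28 ± 0.04 (adjusted p = 1.41e-06). ENO1, enolase, had 2554, 2665 and 2836 CPM in C1 and 2215, 2341 and 2212 CPM in C2, against 2059, 2178 and 2186 CPM in control, a rise of 0.20 ± 0.04 that C1 carried: C2 alone gave 0.08 (adjusted p = 0.192). PGK1, phosphoglycerate kinase, rose by 0.13 ± 0.04 and gave 0.09 with C2 alone (adjusted p = 0.0881). The hexokinases did not follow. HKDC1 fell by 1.32 ± 0.18 (adjusted p = 3.28e-07), to 1.16, 1.28 and 1.45 CPM in C1 and 1.36, 1.29 and 0.756 CPM in C2, and HK1 fell by 0.20. The fall of HK2 by 0.16 rests on C2, since C1 alone gave 0.03 (adjusted p = 0.754).

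Of the HIF targets in CDK19KO, VEGFA and the vasodilator peptide gene ADM fell. VEGFA had 55.0, 52.7 and 55.6 CPM in C1 and 51.4, 51.5 and 52.4 CPM in C2, against 75.8, 83.9 and 82.9 CPM in control, a fall of 0.61 ± 0.05 (adjusted p = 3.15e-12). ADM had 29.3, 28.3 and 30.4 CPM in C1 and 21.9, 23.3 and 21.2 CPM in C2, against 33.6, 35.1 and 34.4 CPM in control, and fell by 0.43 ± 0.06. The groups do not overlap for either gene. EGLN1, the main oxygen-sensing prolyl hydroxylase, rose by 0.58 ± 0.05 (adjusted p = 8.5e-13), to 90.7, 91.9 and 90.9 CPM in C1 and 112, 116 and 113 CPM in C2, against 67.9, 66.6 and 70.6 CPM in control. EPAS1 rose by 0.57 ± 0.05 and PFKFB4 by 0.51 ± 0.07 (adjusted p = 6.64e-12 and 1.06e-07).

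The CDK19KO sublines differed from each other in 24 of the 38 members, against 48.0% of all tested genes. SLC2A3 showed the widest gap, with 1.05, 1.06 and 1.45 CPM in C1 and 22.9, 22.8 and 25.4 CPM in C2, on either side of the 5.30 to 6.90 CPM of control, and C1 over C2 was -4.31 ± 0.12 (adjusted p = 2.24e-26). SLC2A1 followed with 142, 141 and 151 CPM in C1, 365, 368 and 362 CPM in C2 and 249, 332 and 295 CPM in control. NDRG1 had 51.4, 57.6 and 62.4 CPM in C1 and 121, 124 and 126 CPM in C2. C1 lay below control and C2 above it in both. HIF1A had 207, 221 and 211 CPM in C1 and 361, 372 and 376 CPM in C2, against 234, 220.4 and 228 CPM in control. Its pooled rise of 0.30 ± 0.04 therefore rests on C2: C1 alone gave -0.09 (adjusted p = 0.0911) and C2 alone 0.70. For SLC2A3 the pooled fold change of -0.17 (adjusted p = 0.258) averages -2.32 in C1 and 1.99 in C2. P4HA2 (-0.95) and KDM3A (-0.70), the gene of a histone demethylase, were also lower in C1 than in C2, and ALDOC was higher (0.90).

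Set directly against CDK19KO, CDK8KO cells had 11 of the 38 members higher, 19 lower and 8 not called, where 47.1% of all tested genes were called (23.6% higher and 23.4% lower). NDRG1 differed most, at -1.63 ± 0.04 (adjusted p = 4.74e-28), and both sublines of CDK8KO lay below both of CDK19KO. 11 of 17 enzymes were lower in CDK8KO than in CDK19KO, 3 were higher and 3 were not called (median -0.14). LDHA stood at -0.45, PKM at -0.42 and GAPDH at -0.31, all called. Of 13 HIF targets, 5 were higher, 4 lower and 4 not called. Their median was -0.15 pooled, 0.09 between the C1 sublines and -0.18 between the C2 sublines. The enzyme side of this was carried by the C1 sublines, since 14 enzymes were lower in CDK8KO-C1 than in CDK19KO-C1 and 4 in CDK8KO-C2 than in CDK19KO-C2, where 25.0% and 19.5% of all genes were lower.

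**Figure D2:**
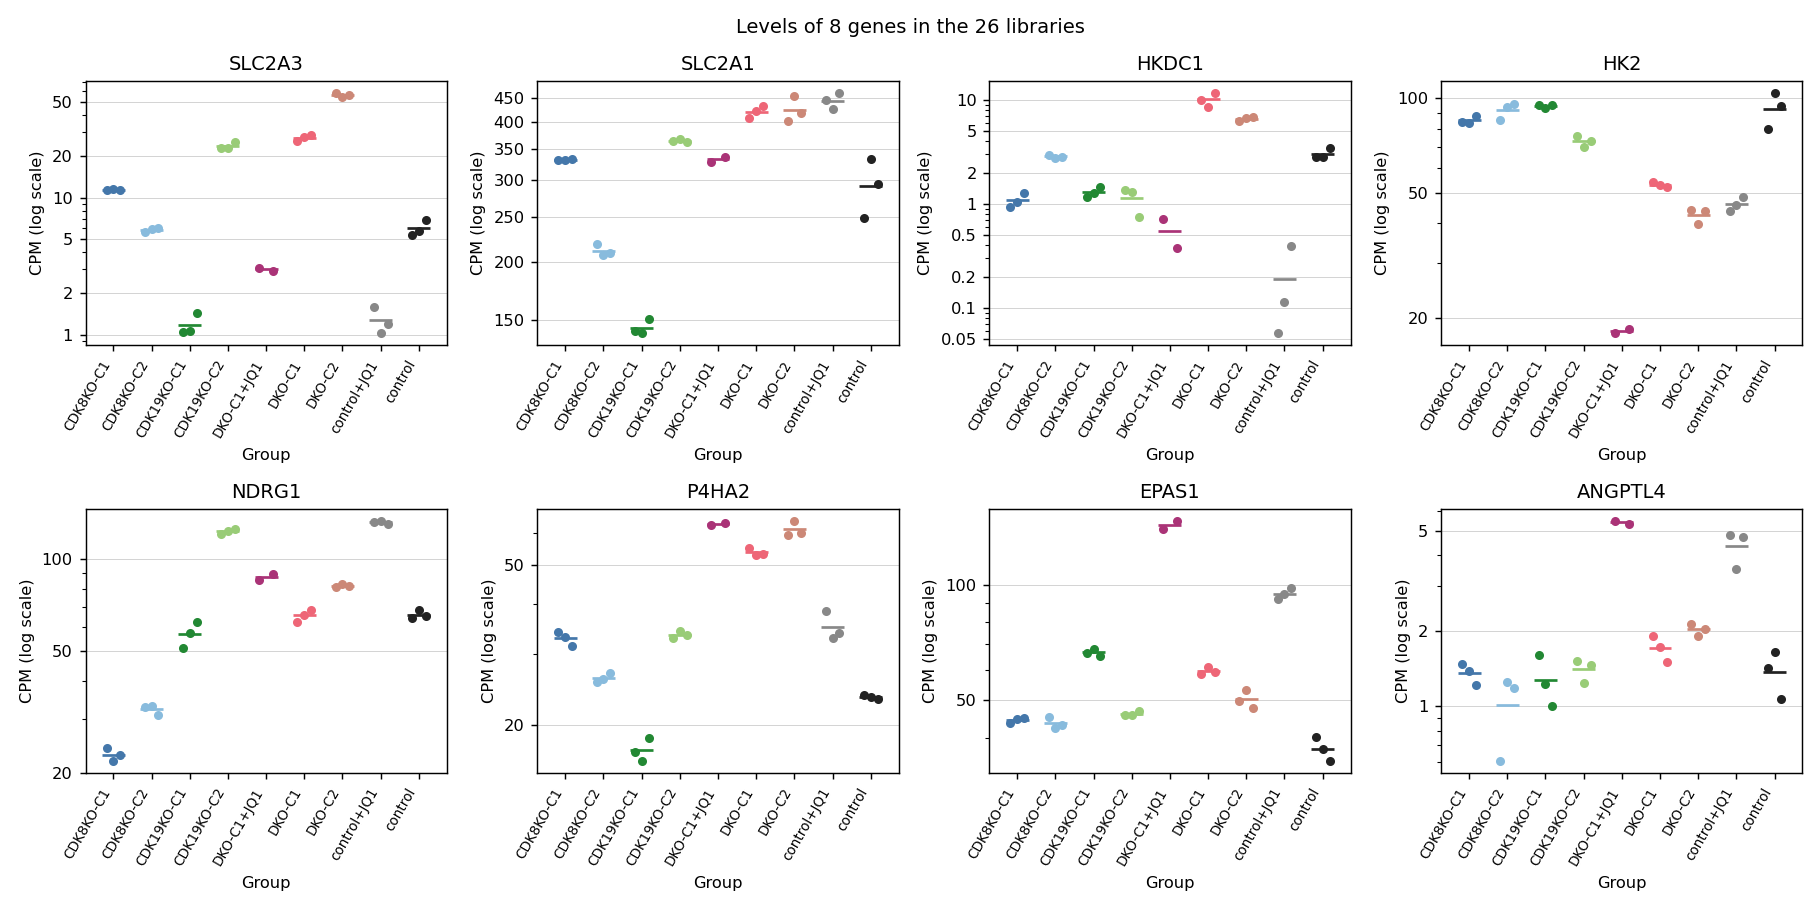
CPM on a log axis of 8 genes in the 26 libraries, by group. Points are libraries and bars are group means. SLC2A3 spans from about 1 CPM in CDK19KO-C1 and control+JQ1 to over 50 CPM in DKO-C2, with C1 and C2 apart in each genotype.

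In the libraries labelled DKO, the glucose carrier SLC2A3, both HIF alpha genes and P4HA2 rose, and HK2 fell. The counts of ALDOA fell too, but whether this reflects less RNA or reads assigned otherwise was not tested. 18 of the 38 members were higher than in control, 9 were lower and 11 were not called, where 61.6% of all tested genes were called (29.5% higher and 32.1% lower). SLC2A3 had 26.04, 27.5 and 28.6 CPM in DKO-C1 and 57.9, 53.7 and 55.8 CPM in DKO-C2, against 5.30, 5.70 and 6.90 CPM in control, a rise of 2.71 ± 0.08 (adjusted p = 1.5e-27). Every DKO library lay above every control library, and DKO-C2 above DKO-C1. SLC2A3 shares 15.3% of its 50-base words with its paralog SLC2A14, so part of its reads can be placed in either gene. SLC2A1 rose by 0.53 ± 0.05, with 407, 421 and 433 CPM in C1 and 402, 455 and 418 CPM in C2, against 249, 332 and 295 CPM in control. The lactate carriers SLC16A1 and SLC16A3 fell by 0.33 and 0.20.

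Both HIF alpha genes rose in DKO. HIF1A had 312, 313 and 312 CPM in DKO-C1 and 369, 328 and 356 CPM in DKO-C2, against 234, 220.4 and 228 CPM in control, a rise of 0.54 ± 0.04 (adjusted p = 1.25e-14). EPAS1 had 58.5, 61.0 and 59.4 CPM in C1 and 49.8, 53.3 and 47.8 CPM in C2, against 40.2, 37.4 and 34.8 CPM in control, a rise of 0.55 ± 0.05. No DKO library overlapped control in either gene. Of 13 HIF targets, 6 rose, 2 fell and 5 were not called, with a median of 0.15. P4HA2 led, with 54.9, 53.0 and 53.0 CPM in C1 and 59.3, 64.3 and 60.1 CPM in C2, against 23.8, 23.5 and 23.3 CPM in control, a rise of 1.29 ± 0.05 (adjusted p = 2.81e-22). BNIP3L rose by 0.63, P4HA1 by 0.45, ANGPTL4 by 0.44, VEGFA by 0.27 and NDRG1 by 0.15. PDK1 and EGLN1 fell by 0.29 and 0.14. With DKO-C1 alone, ANGPTL4 (0.31), NDRG1 (-0.01) and PDK1 (-0.23) were not called, and with DKO-C2 alone EGLN1 (-0.12) was not.

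The 17 enzymes moved in both directions in DKO, with 6 higher, 5 lower and 6 not called and a median of 0.04. The hexokinases moved in opposite directions. HKDC1 rose to 10.1, 8.55 and 11.6 CPM in C1 and 6.19, 6.64 and 6.90 CPM in C2, against 2.83, 2.80 and 3.48 CPM in control (1.42 ± 0.13, adjusted p = 1.01e-11). HK2 fell to 54.3, 53.0 and 52.2 CPM in C1 and 44.2, 39.9 and 43.8 CPM in C2, against 79.7, 104 and 94.8 CPM in control (-0.96 ± 0.06, adjusted p = 7.06e-18). The groups do not overlap in either gene. Per kilobase, control cells held 15.3 CPM of HK2 and 0.713 CPM of HKDC1. ENO2, the enolase of neurons, rose by 0.76, the phosphofructokinase PFKP by 0.49, and its muscle-type partner PFKM fell by 0.49 to 109, 115 and 120.2 CPM in C1 and 110.4, 111 and 108 CPM in C2, against 155, 159 and 158 CPM in control. GPI, which isomerises glucose 6-phosphate, fell by 0.40. PGK1 had 406, 379.9 and 419 CPM in C1 and 435, 405 and 419 CPM in C2, against 416, 421 and 423 CPM in control. PGK1, ENO1, PKM and GAPDH had fold changes of -0.03, -0.03, 0.07 and 0.04, none of them called, and LDHA fell by 0.14 ± 0.04 (adjusted p = 0.00105).

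ALDOA, the main aldolase, gave a value of another order. It had 504, 522 and 554 counts in DKO-C1, 516, 748 and 539 in DKO-C2 and 912 and 995 in DKO-C1 given JQ1, against 18176 to 24679 counts in the other 18 libraries. The fold change in DKO against control was -5.08 ± 0.06 (adjusted p = 3.73e-39). All 8 libraries labelled DKO lay far below the others, though not at one level (504 to 995 counts). In the GENCODE v29 annotation, on build GRCh38, ALDOA (chr16:30064164-30070457, plus strand) shares 42.3% of its exon bases with AC093512.2, a protein-coding gene on the same strand that was not analysed here. 2 further genes with such a same-strand partner fell in the same libraries. LDHB, the other lactate dehydrogenase subunit, fell by 5.05 and shares 33.4% of its exon bases, and TIGAR, a fructose bisphosphatase, fell by 3.46 and shares 42.6%. No other member shares over 5.1% of its exon bases with a gene on its strand. Overlaps were looked up only for the members and a few related genes, LDHB and TIGAR among them. How many other genes have such a partner without a fall, or fell without one, was not counted. Whether the ALDOA value reflects less RNA or reads assigned otherwise was not tested. With every DKO library far below the others, genotype and counting cannot be told apart. Without ALDOA, 6 of 16 enzymes were higher and 4 lower in DKO.

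Pseudogenes of the glycolytic genes moved with it. Processed pseudogenes are copies of a spliced messenger RNA set back into the genome, and 143 rows, named after 15 members, held such copies, 82 of them with at least 1 count. Of 28 rows that reached 10 counts in some library, the copies of LDHB included, 19 were lower in every DKO library than in every other library. How many of all pseudogenes or of all genes did so was not counted. The drop is thus not shown to be particular to these copies. By a different rule, 32.1% of all tested genes were called lower in DKO against control. TPI1P1 had 52 to 79 counts in DKO libraries and 2374 to 3183 in the others. GAPDHP1 had 120 to 180 against 3354 to 4895, LDHAP4 98 to 147 against 694 to 1088, and HK2P1 0 to 2 against 14 to 60. PGAM4, a retained copy of PGAM1, had 0 to 7 counts in DKO libraries and 78 to 148 in the others, a fold change of -5.15 ± 0.26.

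The copies can be so close to their parents that a stretch of 100 bases holds few or no bases that tell them apart. The stretches below are from TPI1, triosephosphate isomerase, and GAPDH, with positions counted from 1 at the start of the coding sequence in GENCODE v29; in TPI1P1, 66.1% of 100-base coding windows of TPI1 had at most 2 mismatches, and in GAPDHP1, 21.5% of those of GAPDH. Each pair was picked as the window with the fewest mismatches. The first pair, coding bases 244 to 343, has 0 mismatches. The second, coding bases 42 to 141, has 1, in capitals.
TPI1: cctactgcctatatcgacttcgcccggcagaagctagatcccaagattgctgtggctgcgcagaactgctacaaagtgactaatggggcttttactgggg
TPI1P1: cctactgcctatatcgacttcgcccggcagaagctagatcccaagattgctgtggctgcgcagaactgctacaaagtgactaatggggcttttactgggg
GAPDH: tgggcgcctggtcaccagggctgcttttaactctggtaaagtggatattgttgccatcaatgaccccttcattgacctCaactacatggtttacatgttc
GAPDHP1: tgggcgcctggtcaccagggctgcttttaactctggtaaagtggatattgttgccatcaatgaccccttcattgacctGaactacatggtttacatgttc

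What this means for the counts of the parents was not tested, and the copies' share differed between genes. As a percentage of the parent's counts, the summed copies amounted in DKO libraries to 0.541% for TPI1, 0.363% for GAPDH, 0.68% for LDHA and 3.18% for BNIP3, against 20.3%, 9.01%, 4.27% and 14.1% in the other libraries. TPI1 itself rose in DKO, with 737, 725 and 783 CPM in C1 and 774, 869.8 and 756 CPM in C2, against 677, 714 and 711 CPM in control (0.14 ± 0.04, adjusted p = 0.0045), a call that DKO-C1 alone did not give (0.095, adjusted p = 0.104). With the counts of its pseudogenes added, TPI1 fell by 0.12 ± 0.04 (adjusted p = 0.0118). GAPDH became -0.08 (adjusted p = 0.0952), BNIP3 -0.12 (adjusted p = 0.0888), LDHA -0.20 and HK2 -1.001. PGAM1, phosphoglycerate mutase, rose by 0.58 ± 0.04 to 169, 172 and 175 CPM in C1 and 180.2, 192 and 179 CPM in C2, against 118, 123 and 115 CPM in control. It had 0.58 with its named pseudogenes added, a sum that leaves out PGAM4. These held 0.835% of its counts in DKO libraries and 0.921% in the others, too few to move the value. PGAM1 shares 30.7% of its 50-base words with other genes, most with AC012085.1 (26.4%). The sum holds only copies named after PGAM1, and not AC012085.1 under that name. It therefore cannot show whether other copies would move the value of PGAM1. PGK1, ENO1 and PKM kept their fold changes to within 0.01. Their copies were also few, at 0.20%, 0.0004% and 0.11% of their counts in the other libraries. Of the 39 members, 8 share at least 10% of their 50-base words with other genes, 31 less than that and 7 none. EPAS1, ADM, NDRG1, KDM3A, P4HA1, PFKFB3 and EGLN3 share none. Over the 13 enzymes that share under 10%, 4 were higher and 4 lower in DKO, and over 11 such HIF targets, 6 and 2.

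**Figure D3:**
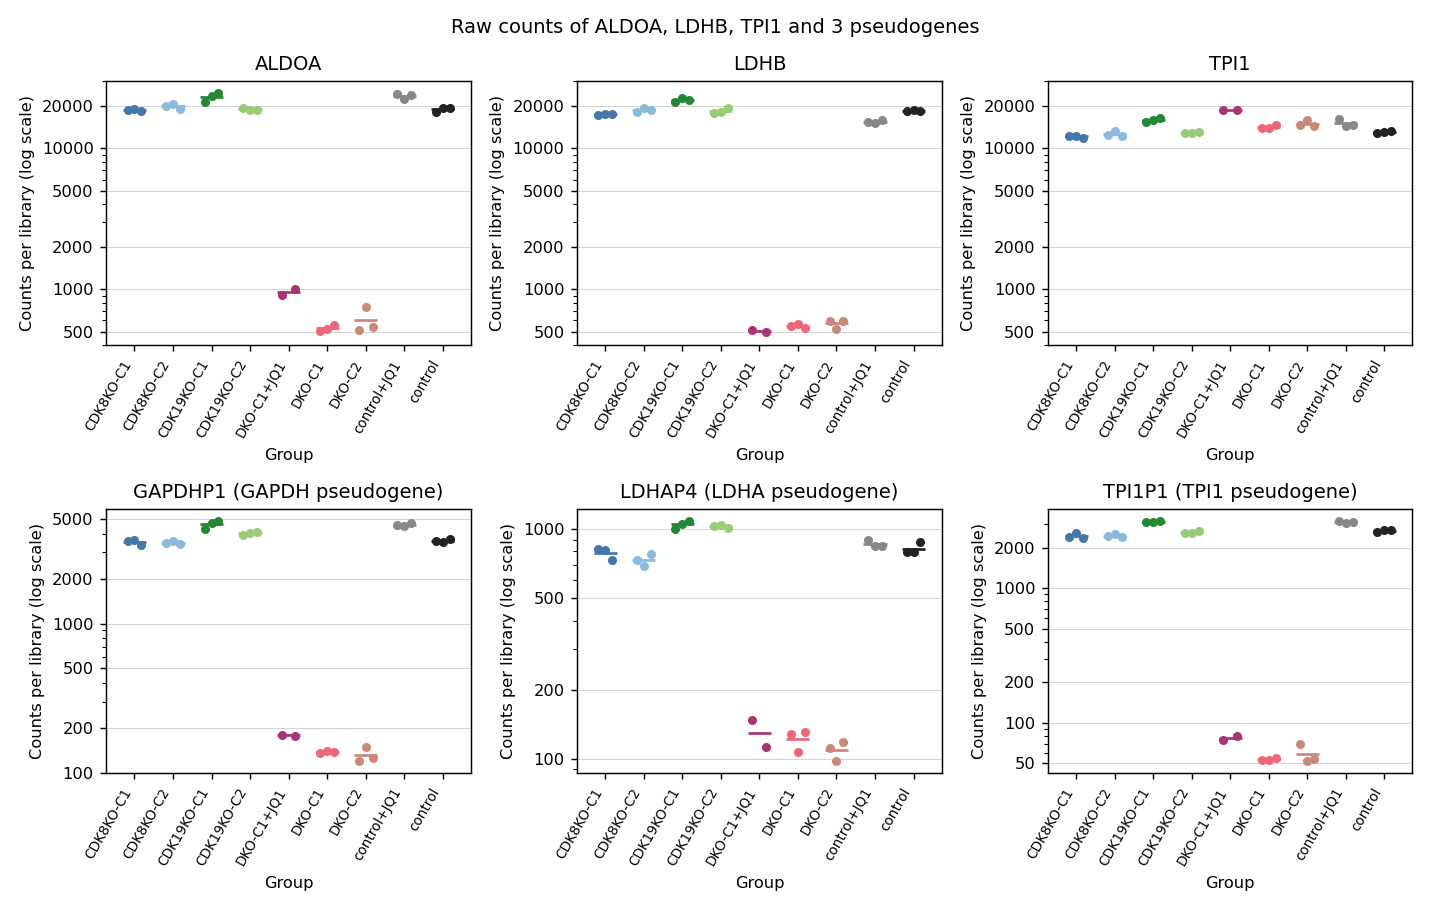
Raw counts on log axes of ALDOA, LDHB, TPI1 and of 3 pseudogenes, GAPDHP1, LDHAP4 and TPI1P1, by group. Points are libraries and bars are group means. In 5 of the 6 panels the 8 DKO libraries lie below all others, and TPI1 itself does not share this.

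Between the DKO sublines 10 of 38 members differed, against 9.42% of all tested genes. SLC2A3 was lower in C1 than in C2 (-1.03 ± 0.07, adjusted p = 1.34e-14), as were BNIP3L (-0.34) and NDRG1 (-0.32), and HKDC1 and HK2 were higher in C1 (0.61 and 0.32). Control and DKO libraries share no subline, so a difference of genotype and one of the cells a subline grew from cannot be told apart.

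JQ1 raised a large part of these genes in both backgrounds and cut a few of them deeply. In control cells 24 of the 38 members were higher with JQ1, 6 were lower and 8 were not called, where 56.0% of all tested genes were called (27.0% higher and 29.1% lower). In DKO-C1, 19 were higher, 8 lower and 11 not called, where 50.3% of all genes were called (24.9% higher and 25.4% lower). HKDC1, SLC2A3 and HK2 fell most in both.

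HKDC1 was left with few counts under JQ1. It had 1, 2 and 7 counts in control+JQ1, against 54, 51 and 65 in control (-3.95 ± 0.34, adjusted p = 1.53e-12), and 13 and 7 counts in DKO-C1+JQ1, against 190, 164 and 216 in DKO-C1 (-4.19 ± 0.24, adjusted p = 4.82e-17). These counts are low, so the size of the fall is uncertain. SLC2A3 fell to 1.603, 1.02 and 1.19 CPM in control+JQ1, against 5.30, 5.70 and 6.90 CPM in control (-2.22 ± 0.16), and to 3.07 and 2.93 CPM in DKO-C1+JQ1, against 26.04, 27.5 and 28.6 CPM in DKO-C1 (-3.19 ± 0.12). HK2 fell to 43.7, 45.8 and 48.5 CPM in control+JQ1 (-1.01 ± 0.07) and to 17.9 and 18.4 CPM in DKO-C1+JQ1 (-1.55 ± 0.09). The groups did not overlap for any of these. HK1, the ubiquitous hexokinase, rose by 0.65 and 0.62 in the same cells, to 143, 144 and 152 CPM in control+JQ1 and 149.7 and 149.4 CPM in DKO-C1+JQ1.

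The rises with JQ1 were led by EPAS1 and by HIF targets. EPAS1 had 91.9, 94.9 and 98.2 CPM in control+JQ1, against 40.2, 37.4 and 34.8 CPM in control (1.34 ± 0.05, adjusted p = 8.51e-22), and 139.7 and 147 CPM in DKO-C1+JQ1, against 58.5, 61.0 and 59.4 CPM in DKO-C1 (1.27 ± 0.06). HIF1A rose by 0.15 in control and had a fold change of 0.06 in DKO-C1, which was not called. ANGPTL4, a secreted inhibitor of lipoprotein lipase, had 4.81, 3.53 and 4.72 CPM in control+JQ1, against 1.42, 1.64 and 1.07 CPM in control (1.66 ± 0.19), and 5.48 and 5.31 CPM in DKO-C1+JQ1, against 1.91, 1.72 and 1.504 CPM in DKO-C1 (1.65 ± 0.19). BNIP3L had 56.8, 58.9 and 64.0 CPM in control+JQ1, against 28.7, 24.6 and 24.4 CPM in control (1.21 ± 0.07), and 81.2 and 75.7 CPM in DKO-C1+JQ1, against 36.6, 35.2 and 35.4 CPM in DKO-C1 (1.13 ± 0.07). NDRG1 rose to 133, 134 and 130.3 CPM in control+JQ1 (1.004 ± 0.05). P4HA1 rose to 80.9 and 75.4 CPM in DKO-C1+JQ1, against 38.0, 37.5 and 36.8 CPM in DKO-C1 (1.06 ± 0.07). VEGFA and ADM went the other way and fell by 0.44 and 0.63 in control and by 0.49 and 0.30 in DKO-C1.

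Of 13 HIF targets, 8 were higher and 2 lower with JQ1 in either background, with medians of 0.48 in control and 0.37 in DKO-C1. The 30 further HIF targets tested did not share this. Of them, 9 were higher and 13 lower in control (median -0.11), and 8 higher and 12 lower in DKO-C1 (median -0.02). Of 17 enzymes, 11 were higher and 3 lower in control and 8 higher and 3 lower in DKO-C1, with medians of 0.22 and 0.10. The medians of all tested genes were -0.02 and 0.00. GAPDH rose to 4685, 4355 and 4627 CPM in control+JQ1 (0.46 ± 0.05) and to 4583 and 4663 CPM in DKO-C1+JQ1 (0.44 ± 0.05), and PKM to 3317, 3126 and 3273 CPM (0.63 ± 0.05) and 2776 and 2802 CPM (0.42 ± 0.05). LDHA rose by 0.15 in control and was not called in DKO-C1 (0.09), and ENO1 was called in neither (-0.0035 and -0.083). The rise of PGK1 in control (0.10, adjusted p = 0.0445) was lost without any of 5 of the 6 libraries compared. ENO2 rose by 0.99 and 0.89. ALDOA rose by 0.41 in control and by 0.90 in DKO-C1, where its counts are those described above.

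The response to JQ1 itself differed between DKO-C1 and control cells for 11 of the 38 members, 4 higher and 7 lower, where 8.59% of all tested genes were called (3.90% higher and 4.70% lower). SLC2A1 changed in opposite directions: it had 328 and 337 CPM in DKO-C1+JQ1 against 407, 421 and 433 CPM in DKO-C1 (-0.34 ± 0.07), and 446, 426 and 462 CPM in control+JQ1 against 249, 332 and 295 CPM in control (0.61 ± 0.06). The difference was -0.95 ± 0.09 (adjusted p = 7.57e-10). SLC2A3 fell more in DKO-C1 than in control cells, by -0.97 ± 0.23 (adjusted p = 0.00461), NDRG1 rose less (-0.59 ± 0.08, adjusted p = 1.51e-06), and HK2 fell more (-0.54 ± 0.11, adjusted p = 0.000932). PFKP fell by 0.14 in DKO-C1 and rose by 0.35 in control. The remaining 6 were PFKFB4, P4HA2, ADM, P4HA1, PFKM and ALDOA. HKDC1, EPAS1, BNIP3L and ANGPTL4 had differences of -0.24 ± 0.70, -0.08 ± 0.08, -0.07 ± 0.10 and -0.0045 ± 0.23 and were not called.

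**Figure D4:**
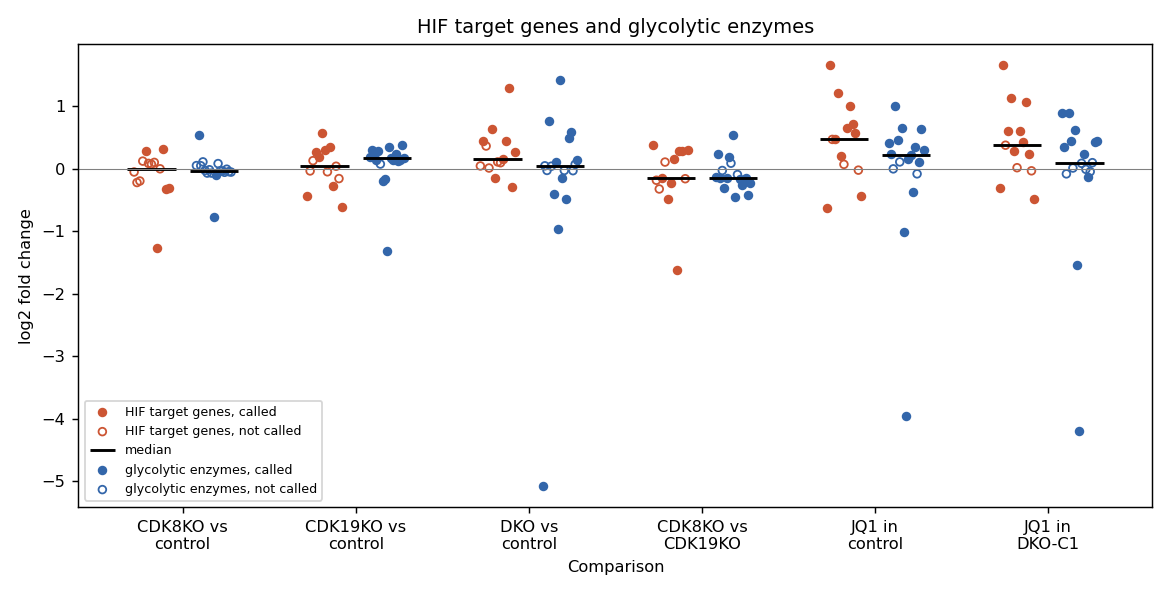
Log2 fold changes of 13 HIF target genes (left of each pair) and 17 glycolytic enzymes (right) in 6 comparisons. Filled points have an adjusted p under 0.05, open points do not, and black bars are medians. The enzyme median is 0.17 in CDK19KO against control, and with JQ1 the medians are 0.48 for HIF targets and 0.22 for enzymes in control. The lowest points are ALDOA in DKO and HKDC1 with JQ1.

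Promoter windows were read from RefSeq (GRCh38.p14), from 250 bases before to 50 after the annotated start, for the 34 members with such a window. The core motifs of HIF, ACGTG and GCGTG, were searched on both strands. An ACGTG or GCGTG stood in 25 of the 34 windows (73.5%), against 48.4% of all 35116 windows. Members have 1 window each, the first listed, while the share of all takes every window. The shares are therefore over unlike sets. By role, 8 of 11 HIF targets and 12 of 17 enzymes held one. The palindrome CACGTG, which counts as an ACGTG on each strand and is also the E-box of MYC, stood in 5 of 34 windows and in 7.26% of all. The windows below are of a glycolytic enzyme with many such letters (LDHA), of the hexokinase that fell in DKO and with JQ1 (HK2), and of the 2 genes that rose most with JQ1 in control cells (EPAS1 and ANGPTL4). They are at chr11:18394313-18394612, chr2:74833877-74834176, chr2:46297157-46297456 and chr19:8363905-8364204, all on the plus strand. Capitals mark ACGTG and GCGTG on either strand.
LDHA: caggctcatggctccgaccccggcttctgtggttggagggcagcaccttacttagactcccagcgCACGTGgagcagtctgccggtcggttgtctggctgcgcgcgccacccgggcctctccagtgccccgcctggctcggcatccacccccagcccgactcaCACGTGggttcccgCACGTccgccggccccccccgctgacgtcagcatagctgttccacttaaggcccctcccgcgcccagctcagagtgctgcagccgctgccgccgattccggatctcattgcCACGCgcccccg
HK2: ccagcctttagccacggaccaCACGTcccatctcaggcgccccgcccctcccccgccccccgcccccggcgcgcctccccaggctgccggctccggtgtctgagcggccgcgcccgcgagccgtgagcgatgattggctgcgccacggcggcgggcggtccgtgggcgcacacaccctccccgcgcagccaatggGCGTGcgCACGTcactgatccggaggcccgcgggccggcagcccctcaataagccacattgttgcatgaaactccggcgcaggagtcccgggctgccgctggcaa
EPAS1: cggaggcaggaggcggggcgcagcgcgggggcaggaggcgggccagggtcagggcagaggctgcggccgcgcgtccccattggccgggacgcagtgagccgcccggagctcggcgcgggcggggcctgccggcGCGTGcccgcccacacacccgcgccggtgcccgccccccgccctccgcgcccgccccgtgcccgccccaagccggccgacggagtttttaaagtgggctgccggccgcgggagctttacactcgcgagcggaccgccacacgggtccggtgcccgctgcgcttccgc
ANGPTL4: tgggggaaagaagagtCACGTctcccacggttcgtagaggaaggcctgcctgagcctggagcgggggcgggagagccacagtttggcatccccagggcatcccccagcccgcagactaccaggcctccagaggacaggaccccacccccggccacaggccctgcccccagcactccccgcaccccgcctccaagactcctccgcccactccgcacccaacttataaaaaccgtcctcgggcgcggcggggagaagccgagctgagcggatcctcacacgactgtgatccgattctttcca
LDHA held 5 matches to ACGTG and 1 to GCGTG, HK2 2 and 1, EPAS1 0 and 1, and ANGPTL4 1 and 0. LDHA and HK2, both with ACGTG, moved differently with JQ1 (0.15 and -1.01 in control). A match is a description of the letters, not a site of binding.

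Other genes of the pathways were followed as lists, whose counts are to be read against the shares of all tested genes called: 40.5% in CDK8KO, 43.0% in CDK19KO, 61.6% in DKO, and 56.0% and 50.3% with JQ1 in control and in DKO-C1. Among 30 further HIF targets tested, 18 rose, 6 fell and 6 were not called in DKO against control, with a median of 0.31, and LOXL2, a lysyl oxidase, rose by 3.26 ± 0.06. In CDK8KO 10 rose and 10 fell. In CDK19KO 6 rose and 7 fell, 43.3% of the list and so at the background. DDIT4, an inhibitor of mTORC1, fell by 1.31 in CDK8KO and by 2.07 in CDK19KO, and LOXL2 rose by 1.39 in CDK8KO. In CDK19KO the sublines moved apart for LOXL2, which had 172, 172 and 200 counts in C1 and 1333, 1276 and 1271 counts in C2, against 291, 269 and 313 counts in control. C1 alone gave -0.63 and C2 alone 2.18, so the pooled 0.78 describes neither. BHLHE41, a transcriptional repressor, fell by 1.24 and IGFBP3 rose by 1.67 in CDK8KO, both in C1 and in C2. CA12, a carbonic anhydrase, had 72, 96 and 75 counts in CDK19KO-C1 and 8, 7 and 10 counts in CDK19KO-C2, against 105, 84 and 76 counts in control. Its pooled fall of 1.71 rests on C2 (-3.35 alone), since C1 alone gave -0.07 and was not called. With JQ1 in control, 9 rose and 13 fell, with LOXL2 (1.22) and PLOD2, a lysyl hydroxylase (0.89), at the top, and BHLHE41 (-1.58) and CA12 (-1.55) at the bottom. With JQ1 in DKO-C1, 8 rose and 12 fell, and STC2, a secreted glycoprotein, and DDIT4 fell by 2.28 and 1.64.

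Of 13 genes for the entry of pyruvate into mitochondria, 4 rose and 6 fell in CDK8KO, 5 and 3 in CDK19KO, 3 and 6 in DKO, 6 and 3 with JQ1 in control, and 6 and 4 with JQ1 in DKO-C1. PDK4, a kinase that inhibits pyruvate dehydrogenase, rose by 0.70 in CDK19KO, where C1 alone was not called, and with JQ1 in DKO-C1 its relative PDK3 rose by 1.16 and MPC1, a subunit of the pyruvate carrier, by 0.85. Of 7 genes of the pentose phosphate pathway, 0 rose and 4 fell in CDK8KO, 2 and 3 in CDK19KO, and 0 and 4 in DKO. Of 10 further glycolytic isoenzymes tested, LDHB, PGAM4 and TIGAR included, 1 rose and 6 fell in DKO. Of 12 tested partners and regulators of HIF, 5 rose and 2 fell in CDK8KO, 4 and 2 in CDK19KO, 5 and 2 in DKO, and 4 and 2 with JQ1 in each background.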

How the data were processed

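Counts of RNA from 26 libraries of HCT116 and its knockout sublines were analysed. Per the submitters' processing notes, reads were aligned to hg38 with STAR 2.5.2 and counted with featureCounts of Subread 1.6.3; what the authors deposited is the unnormalised count of each gene and spike-in RNA. Annotation release, strand setting, JQ1 dose and time: not given in the sources used here. 22 columns were matched to 1 sample and 4 to a group only (3 of DKO-C2, by elimination, and 1 of DKO-C1+JQ1), with replicates a, b and c. The labels name a spike-in for 14 samples and none for 12. Nothing says that replicates were separate cultures, so p values measure only the spread between these libraries, which may be technical.

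Genes were tested with the quasi-likelihood test of edgeR 4.0.16 (R 4.3.3) in a fit of all 26 libraries in 9 groups, with TMM factors (0.956 to 1.02) and filterByExpr (minimum count 10, minimum total 15), which left 17198 genes. Two-sided p values were adjusted over all of these by Benjamini and Hochberg, with calls under 0.05, and the SE is the log2 fold change over the root of F. Genotypes are means of sublines C1 and C2. The script was tested on simulated data. Members and lists were chosen with earlier results of these data known. Genes with values in every library are those called with a log2 fold change of at least 1 in size, the 3 largest called rises and falls per comparison, HIF1A, EPAS1, GAPDH, PGK1, LDHA, ENO1 and PKM; TPI1, PGAM1, HK1, SLC2A1 and PFKM were added after their values were seen. For other pathway genes the 2 largest called rises and falls are named, except 1 that is not reported here. Shared sequence is the share of 50-base words found in transcripts of other genes in GENCODE v29. Alternatives were median-of-ratios factors, DESeq2 1.42.0, no filter, ERCC factors, a replicate block, only the libraries compared, each subline alone, each library left out, and, chosen after seeing the data, pseudogene counts added to the parent.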

Additional observations from a re-analysis of the deposited data

Results flagged for a closer look

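The response to JQ1 differed between DKO-C1 and control cells, by the edgeR test of the difference itself, in 11 members. In log2 units, DKO-C1 minus control, the differences were -0.97 for SLC2A3, -0.95 for SLC2A1, -0.59 for NDRG1, -0.54 for HK2, -0.49 for PFKP, -0.40 for PFKFB4, -0.34 for P4HA2, 0.33 for ADM, 0.34 for P4HA1, 0.37 for PFKM and 0.49 for ALDOA. DKO-C1+JQ1 holds 2 libraries, and the DKO counts of ALDOA are at issue as described.

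Sublines of 1 genotype differed by at least 1 log2 unit in 5 cases, listed with C1 over C2: SLC2A3 (-4.31), SLC2A1 (-1.33) and NDRG1 (-1.12) in CDK19KO, HKDC1 (-1.39) in CDK8KO, and SLC2A3 (-1.03) in DKO.

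ERCC transcripts were counted in all 12 libraries of the single knockouts, whose labels name no spike-in, at 423954 to 807887 counts. The 14 libraries labelled with the spike-in held 193685 to 581455, and control 193685 to 233534.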

How the results depend on the processing

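The cause was not tested for any change below. Of 1045 alternative values for single genes, 981 kept their direction and side of the threshold, and of 274 alternative counts of called members, 255 stayed within 1.5 times. ERCC factors gave most of the other counts and the largest group of the other single-gene values, ahead of single sublines and left-out libraries. With them, members higher and lower became 0 and 38 in CDK8KO, 0 and 38 in CDK19KO, 3 and 32 in DKO, and 24 and 1 in CDK8KO against CDK19KO. 6 were higher with JQ1 in control and 6 in DKO-C1, 0 higher and 1 lower in the difference of the JQ1 responses, and 3, 11 and 4 were called between the sublines of CDK8KO, CDK19KO and DKO. Single genes turned to -0.77 (SLC2A3), -0.71 (PFKFB3), -0.69 (ALDOC) and -0.99 (EPAS1) in CDK8KO, to -1.14 (PFKFB4), -1.08 (EPAS1), -1.07 (EGLN1), -1.35 (HIF1A), -1.38 (GAPDH), -1.52 (PGK1), -1.30 (LDHA), -1.45 (ENO1) and -1.28 (PKM) in CDK19KO, to -0.36 (HIF1A), -0.35 (EPAS1), -0.76 (TPI1) and -0.32 (PGAM1) in DKO, and to -0.22 (HIF1A), -0.26 (PGK1) and -0.22 (LDHA) with JQ1 in control. These are values with the shift of all genes included.

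With 1 subline alone, SLC2A3 became -0.035 in CDK8KO-C2 and HIF1A -0.094 in CDK19KO-C1. Adding pseudogene counts turned TPI1 to -0.12 in DKO. With only the libraries compared, 6 members were called between the DKO sublines. Leaving out 1 library gave 5 to 9 members lower in CDK8KO (5 without control replicate 2) and 2 to 3 members higher in the difference of the JQ1 responses (2 without either DKO-C1+JQ1 library, the other then assumed to vary like the other groups).

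The labels give groups the same replicate numbers. Over 63 pairs of same-numbered libraries, the deviations from group means correlated between -0.063 and 0.075 across all tested genes. No pairing by number was seen, but a weak one could be missed, since genes with few counts weigh in these correlations too. With the replicate block, 8 members were higher in CDK8KO and 23 in CDK19KO, 13 in DKO-C1, 25 with JQ1 in control and 19 in DKO-C1, TPI1 in DKO-C1 had an adjusted p of 0.0576, and LDHA with JQ1 in DKO-C1 became 0.143 (adjusted p = 0.0425), a call. Depth limits CA9, and makes the size of changes of HKDC1 and ANKRD37, with few counts, uncertain.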
